A study of Drosophila melanogaster with 3 samples.

Results

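The genes of the ecdysone cascade described here are the steroid receptor genes EcR and usp, the early genes br, Eip74EF and Eip75B, the early-late genes Eip78C, Hr3 and Hr39, the competence factor gene ftz-f1 and the late gene Eip93F, 10 of the 13945 protein-coding genes annotated. The group was proposed after the peak lists had been ranked, with the strong peak at Eip75B in view. The peaks were then selected by position, taking every peak whose summit lay in the gene body or within 5 kb to either side. Of the 4876 peaks that the authors kept as reproducible, their optimal list, 34 met this rule. Of the 21656 candidates of the pooled list, 174 met it, as did 210, 208 and 182 candidates of replicates 1, 2 and 3. Counts at these genes are therefore descriptions, and no test was run on them.

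Binding of the protein of CG4820 was mapped by chromatin immunoprecipitation and sequencing (ChIP-seq), with an antibody against GFP, in Drosophila melanogaster embryos from 1 transgenic line that stably expressed CG4820 with a GFP tag at its C-terminus. Whole embryos of pooled sexes, collected at 0 to 16 h, gave 3 biological replicates of 1 group, with no treated, mutant or untagged group to compare. Chromatin had been sonicated to 200 to 800 bp, and candidate lists held 26597, 27004 and 26145 peaks for replicates 1, 2 and 3. Sequencing depth is unknown, since the lists give peaks and no read totals. Whole embryos mix all tissues and many ages, so binding in few cells and weak binding in many cannot be told apart.

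Ecdysone, the steroid hormone that times moulting and metamorphosis in insects, acts through a heterodimer of the nuclear receptors EcR and Usp. The bound receptor switches on early genes that encode transcription factors, and these in turn activate or repress later genes. Several genes of the cascade are long and have alternative promoters whose transcripts encode different protein isoforms. A pulse of the hormone also occurs in mid-embryogenesis, where receptor and early genes are needed for the embryo to complete its development.

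Sequences at some of the peaks are shown first, led by 1 peak at Eip75B that stood far above all others in the group. They are a selection and not the strongest peaks in order. The Hr3 peaks of ranks 155 and 292 and the Eip75B peak of rank 750 are left out. The leading summit lay in the 5′ untranslated region (5′ UTR) of the transcript Eip75B-RC, and 30 bases around it are given, followed by the 150 bases just upstream of that start. Next come 101 bases centred on 3 summits in Eip75B introns, and on 1 summit each in usp (30 bases of a 5′ UTR) and ftz-f1. Each name carries the rank of its peak in the optimal list by signal. All are read 5′ to 3′ along the gene, which is the minus strand in each case, from the RefSeq genome of the dm6 assembly. Capitals mark TTTATGCG or CGCCATCT, both words looked for after the sequences had been read, and CGATA or TAATTA, words from the list of motifs searched. The selection does not show how common these words are, and counts over all summits of the group are given below.
Eip75B 2, chr3L:17999738-17999767: attgacacttatgttaaaaaaataggtgag
Eip75B-RC upstream, chr3L:17999822-17999971: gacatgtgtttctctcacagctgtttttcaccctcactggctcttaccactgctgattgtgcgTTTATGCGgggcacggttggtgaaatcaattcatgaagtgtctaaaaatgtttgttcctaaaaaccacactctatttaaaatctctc
Eip75B 415, chr3L:18005182-18005282: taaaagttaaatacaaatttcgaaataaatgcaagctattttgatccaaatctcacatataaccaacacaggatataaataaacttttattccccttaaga
Eip75B 1123, chr3L:18019757-18019857: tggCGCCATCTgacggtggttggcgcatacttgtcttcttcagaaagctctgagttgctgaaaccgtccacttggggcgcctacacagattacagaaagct
Eip75B 1934, chr3L:17988252-17988352: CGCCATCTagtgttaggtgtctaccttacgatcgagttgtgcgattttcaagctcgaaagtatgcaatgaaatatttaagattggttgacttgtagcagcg
usp 1706, chrX:2041489-2041518: gtgcttcaattgggagacCGATAtatgtac
ftz-f1 2123, chr3L:18786977-18787077: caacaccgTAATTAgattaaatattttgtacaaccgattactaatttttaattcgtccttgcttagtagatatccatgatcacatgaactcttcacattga

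Across the group, most optimal peaks lay inside introns, as did most peaks at long genes. Of the 34 summits, 28 (82.4%) were in introns, 2 in 5′ UTRs, 3 in the downstream and 1 in the upstream flank. Counted the same way, 20.2% of the summits in windows of all protein-coding genes lay in an intron of that gene. For genes of 20 kb or more the share was 68.2%, beside 28 of 33 summits at the members of that length. Of the 10 genes, 9 had an optimal peak in their window, against 48.8% of all protein-coding genes. The genes are long, however, and among the 1013 protein-coding genes of 20 kb or more the share was 66.5%, beside 8 of the 9 members of that length. Eip75B, usp and EcR had a summit within 500 bp of one of their own annotated starts, 3 of 10 against 19.9% of all protein-coding genes. For genes of 20 kb or more the counts were 2 of 9 members against 25.0%.

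The windows spanned 660.7 kb in all and held 5.15 optimal peaks per 100 kb, against 3.64 over the chromosome arms. Pooled candidates were denser there in a like measure, at 26.3 per 100 kb against 16.2 over the arms. The arms also hold sequence outside gene windows, so neither comparison is between like regions. The share of pooled candidates that belonged to the optimal list was 19.5% at these genes and 22.5% in the whole list. Peak signal was also near that of the whole list, with a median of 179.7 against 171.

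**Figure D1:**
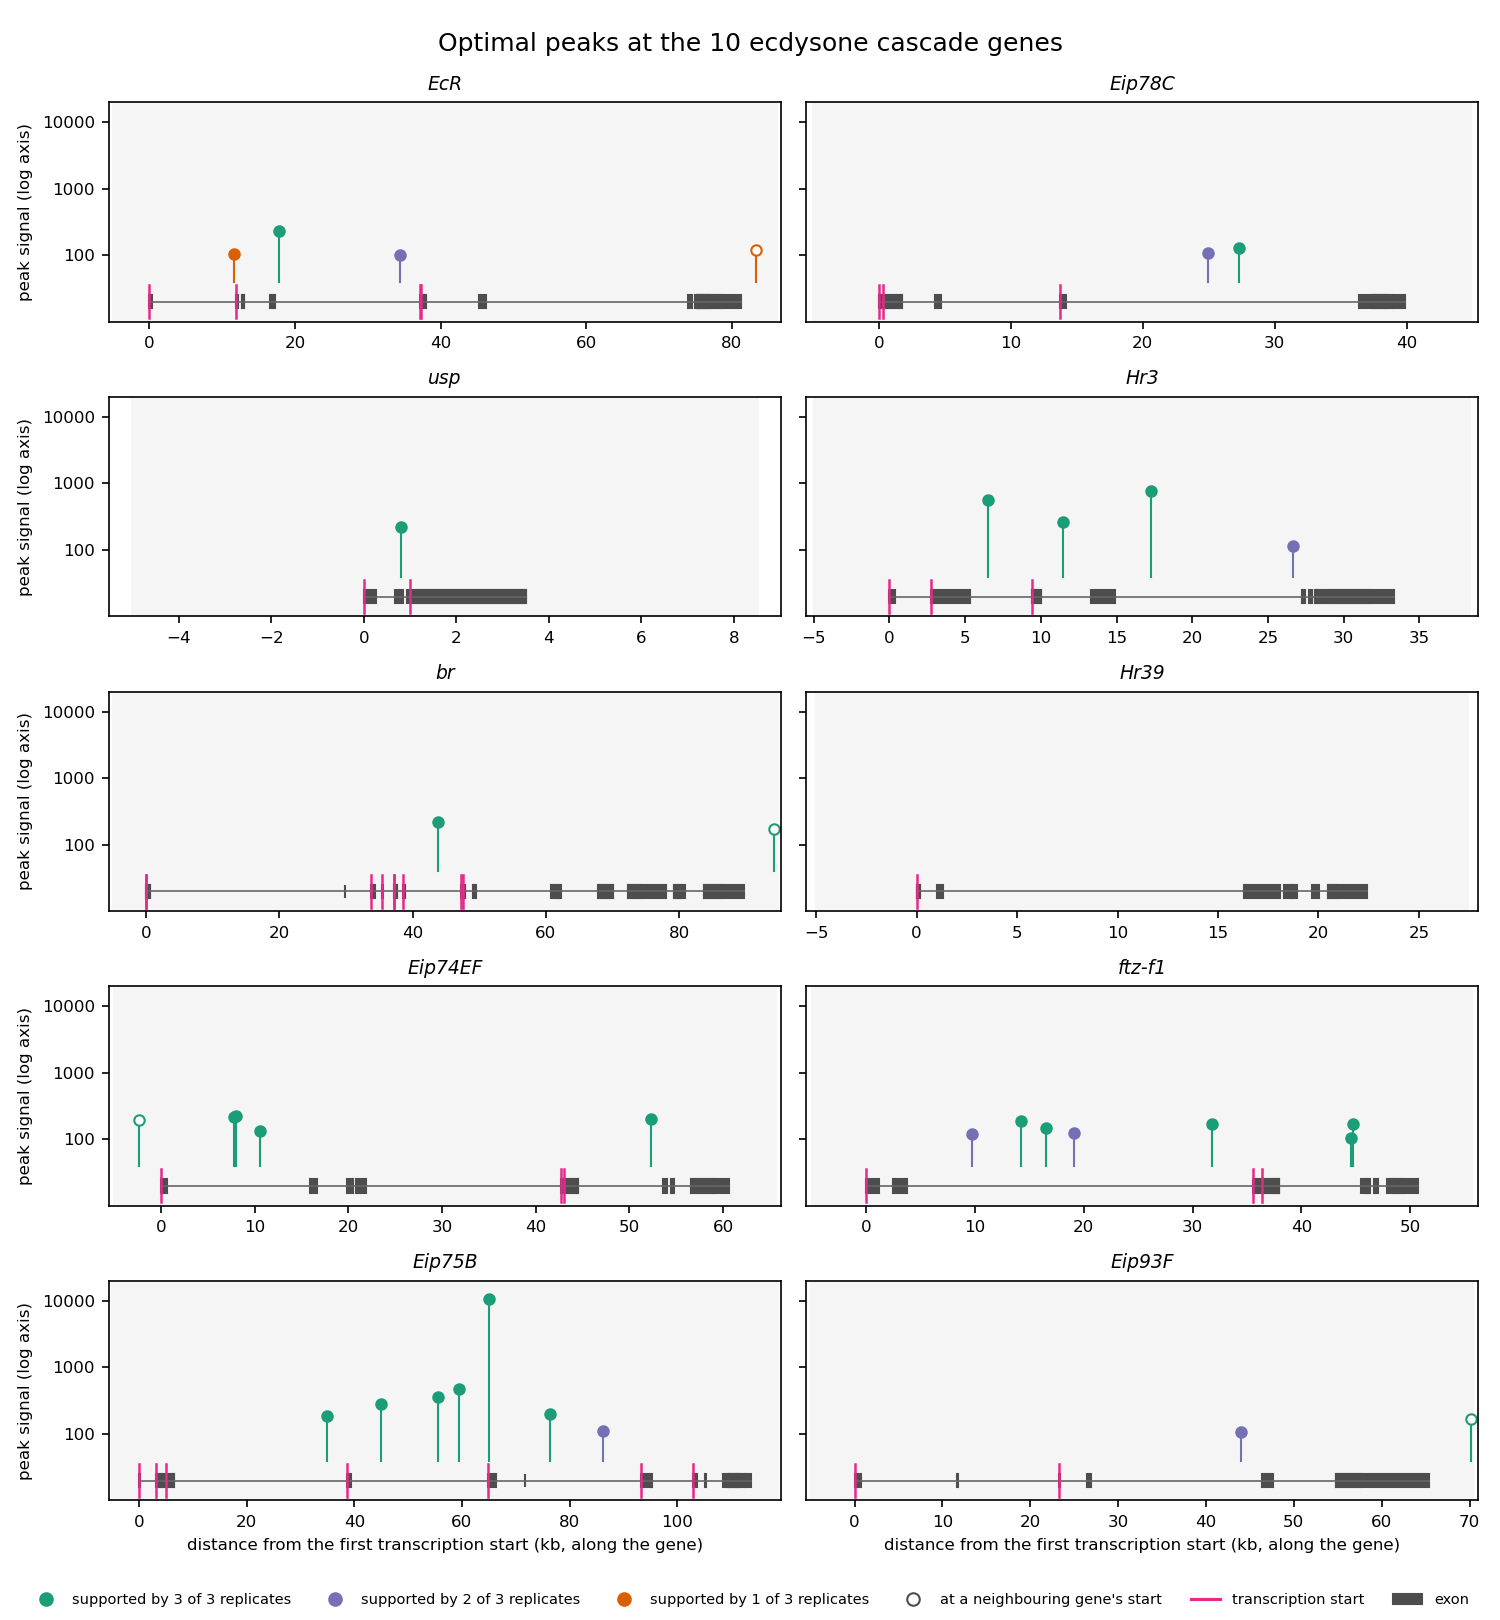
Optimal peaks at each of the 10 genes, drawn by distance from the gene's first transcription start (x axis, kb along the gene) and by peak signal in the optimal list (y axis, log scale). Pink lines are annotated starts, dark boxes exons, grey areas the window with 5 kb on each side, colours the number of supporting replicates, and open circles peaks at the start of a neighbouring gene; the Eip75B peak at 10576.53 is the only one above 1000.

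The strongest peak at each receptor gene was of middling rank, and the other EcR peaks were weak, with ranks from 3947 to 4818. EcR (FBgn0000546, arm 2R, 6087873 to 6169087, minus strand) encodes the ecdysone-binding subunit and had 4 optimal peaks spread over 71.6 kb. Its strongest (6151055 to 6151470, signal 227.64, rank 1597) lay in intron 3 of EcR-RA, 5866 bp downstream of the start of EcR-RD and EcR-RE. That peak ranked 4004, 1332 and 1036 in replicates 1, 2 and 3, so replicate 1 placed it well below the other two. A tRNA gene, tRNA:Asn-GTT-1-1, started nearer to it, at 1413 bp.

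The EcR promoter peak was one of the weakest of the optimal list. It lay 316 bp upstream of the start shared by EcR-RD and EcR-RE, had a signal of 103.58 and ranked 4733. Replicate ranks were 5006, 4023 and 7104, so only replicate 2 placed it among its 4876 strongest candidates. The peak that ranked 4818 (8587, 4202 and 4774 in the replicates), 2725 bp upstream of EcR-RB and EcR-RC, was the member peak just inside the end of the optimal list, and CG14589 started slightly nearer to it, at 2656 bp. Just outside it was a candidate in ftz-f1, rank 5246 in the pooled list (4178, 4255 and 9001). The last, rank 3947 (6360, 2779 and 5889), lay past the 3′ end of EcR and 216 bp from the start of Ars2, a gene for an RNA-processing factor. In all, 1 of the 4 EcR peaks had the support of every replicate, where support means an overlap of at least 1 bp with that replicate's 4876 candidates of highest signal.

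The gene usp (FBgn0003964, X, 2038798 to 2042311, minus strand) encodes the partner of EcR and, at 3.51 kb, is the shortest of the group. It had 1 peak (2041296 to 2041711, signal 217.99, rank 1706), with its summit 192 bp upstream of the start of usp-RA and inside the 5′ UTR of usp-RB. Ranks were 2779, 1330 and 1686 in the 3 replicates, all inside the 4876 strongest, and the replicate summits lay within 22 bp of the optimal one. At the other start, that of usp-RB, the pooled list held a candidate of rank 6686, outside the optimal list, and replicate 3 held none.

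Among the early genes, br had no candidate in any list at any of its 9 starts. It encodes the Broad zinc finger transcription factors (FBgn0283451, X, 1575132 to 1664869, plus strand). Its only peak inside the gene (1618668 to 1619083, signal 217.13, rank 1714) lay in intron 1 of br-RN, 3432 bp upstream of br-RS, with 1613, 2050 and 1661 as replicate ranks. Mur2B, a mucin-related gene nested in that intron, started 721 bp from the summit. The other peak of the br window, rank 2429 (1778, 2980 and 2681), lay 107 bp from the start of the neighbour CG3740. Every replicate supported both.

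Eip74EF encodes Ets-domain transcription factors (FBgn0000567, 3L, 17558672 to 17619325, minus strand) and had 5 peaks, all supported by every replicate. A pair of them, ranks 1660 and 1716, had summits 224 bp apart in intron 1 of Eip74EF-RE, 7981 and 7757 bp downstream of the start of Eip74EF-RA, Eip74EF-RC and Eip74EF-RE. In each replicate a single candidate, rank 1684, 1690 or 1838, overlapped both, so the support of the pair rests on the same replicate peaks. A weaker one in the same intron, 10536 bp from that start, ranked 3364 (3780, 4783 and 2535). In intron 5 of Eip74EF-RE the peak of rank 1881 (1341, 2473 and 1808) lay 9278 bp downstream of Eip74EF-RD and about as far, 9254 bp, from the start of CycT, which encodes a cyclin of the elongation factor P-TEFb.

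No Eip74EF start reached the optimal list. The start of Eip74EF-RA, Eip74EF-RC and Eip74EF-RE had a pooled candidate of rank 6000 at 303 bp, which ranked 4227, 7926 and 9716 in the replicates. The remaining peak of the window, rank 2047 (1689, 2851 and 2020), was 3 bp from the start of Vps60, which encodes a subunit of the membrane-remodelling ESCRT-III complex.

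Eip75B, which encodes the heme-binding nuclear receptor E75 (FBgn0000568, 3L, 17950953 to 18064696, minus strand), carried the strongest peak of the group by a wide margin. Its peak (17999393 to 18000144, signal 10576.53) ranked 2 in the optimal list, with the summit 68 bp downstream of the start of Eip75B-RC. It also ranked 2 in each of the 3 replicates, whose summits lay 4, 24 and 1 bp from the optimal summit. Its signal was 22.0 times that of the next Eip75B peak, and the corresponding ratio within the replicate lists was 25.9, 22.0 and 19.8. At 752 bp it was also wide, since only 6 optimal peaks were wider and 77.8% of the list had a width of 416 bp.

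Of the 7 Eip75B starts, 1 had an optimal peak within 500 bp. The share was 12.8% for starts of genes of 20 kb or more and 17.8% for all protein-coding genes. The starts of Eip75B-RF and Eip75B-RA had pooled candidates of ranks 10838 and 11549, and those of Eip75B-RE, Eip75B-RB, Eip75B-RG and Eip75B-RD had none in the pooled list. Replicate 2 alone listed weak candidates at Eip75B-RG and Eip75B-RD, of ranks 21863 and 17002.

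The other 6 Eip75B peaks lay in 2 long introns, 4 upstream and 2 downstream of the Eip75B-RC start. In intron 3 of Eip75B-RF, the peak 5411 bp upstream of that start (18005024 to 18005439, signal 481.32) ranked 415 (500, 398 and 417 in the replicates). The peak 9354 bp upstream ranked 750 (907, 618 and 870). Both thus kept ranks between 398 and 907 in all lists.

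Farther upstream in that intron, the peaks of rank 1123 (1274, 1232 and 936) and rank 2137 (1443, 1925 and 3718) flanked the start of Eip75B-RG at 6225 bp downstream and 3773 bp upstream. In intron 4 of Eip75B-RF, the peak of rank 1934 ranked 3798, 1678 and 1495. The weakest, rank 4264, ranked 2476, 5816 and 3918 and was the only Eip75B peak without the support of every replicate. The non-coding gene lncRNA:CR45921 started nearer to these 2 than any Eip75B transcript, at 6461 and 3263 bp. Its 7 peaks put Eip75B among the 64 protein-coding genes (0.459%) with that many or more, and the highest count at any gene was 22. That count takes no account of length, and the gene spans 114.0 kb. Per 10 kb of its window it had 0.566 peaks, against a median of 0.261 for genes of 20 kb or more. Counted among each replicate's 4876 strongest candidates, the Eip75B window held 7.33 ± 1.15 peaks (SD, n = 3).

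**Figure D2:**
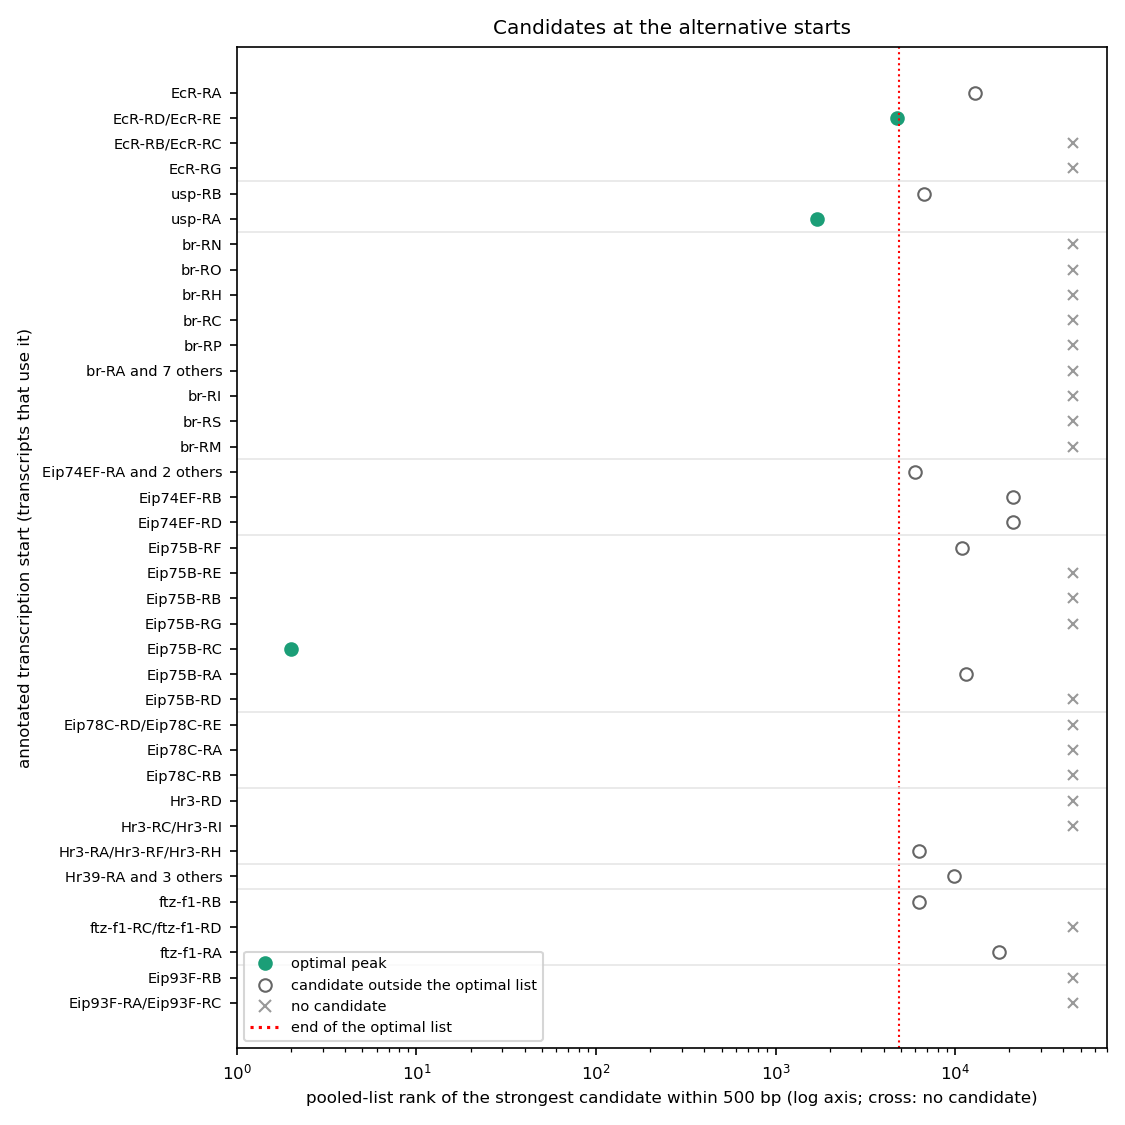
Strongest pooled candidate within 500 bp of each of the 37 annotated starts, by its rank in the pooled list (x axis, log scale); rows are starts, named by the transcripts that use them. Filled circles are the 3 starts with an optimal peak, open circles the 11 with a weaker candidate, and crosses the 23 with none. Eip74EF-RB and Eip74EF-RD share 1 candidate, of rank 21034. The share of all protein-coding starts with a candidate is not given here. Eip75B-RC, at rank 2, lies far from the others.

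Of the early-late genes, Hr3 had the strongest peaks after Eip75B. Hr3 (FBgn0000448, arm 2R, 10203995 to 10237348, minus strand) encodes the nuclear receptor that represses early genes and activates ftz-f1 at the onset of metamorphosis. All 4 of its peaks were in intron 1 of Hr3-RD. The strongest (10219914 to 10220239, signal 758.61, rank 155) lay 7903 bp downstream of the start of Hr3-RA, Hr3-RF and Hr3-RH and ranked 168, 163 and 143 in the replicates. The next, rank 292 (275, 295 and 370), was 2903 bp upstream of the same start.

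Another Hr3 peak, rank 1308 (1143, 1139 and 1511), lay 2080 bp downstream of that start. The fourth, rank 4109 (3564, 5868 and 2849), lay nearest to lncRNA:CR46322 and lacked the support of replicate 2. The start itself, which Hr3 shares with CG46321, had a pooled candidate of rank 6270, outside the optimal list. The 2 strongest Hr3 peaks were narrower than most, at 326 and 259 bp.

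Eip78C, which encodes the nuclear receptor E78 (FBgn0004865, 3L, 21226609 to 21266503, plus strand), had only weak peaks. They ranked 3569 (4512, 2852 and 4315) and 4557 (5919, 4857 and 3676), both in intron 3 of Eip78C-RA, at 13542 and 11188 bp downstream of the start of Eip78C-RB. Another gene, CG43218, started nearer to both, at 4131 and 6485 bp, so neither was nearest to an Eip78C start. None of its 3 starts had a candidate in any list.

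Hr39 (FBgn0261239, 2L, 21237250 to 21259675, plus strand), a nuclear receptor gene related to ftz-f1, was the only member without an optimal peak. Its strongest pooled candidate (21263812 to 21264227, signal 93.53) ranked 5373 in the downstream flank, and 3745, 6553 and 6488 in the replicates. A candidate 62 bp from its single start ranked 9827 in the pooled list, 5031 and 12022 in replicates 1 and 2, and was missing from replicate 3. The nearest optimal summit to that start was 22125 bp away.

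The competence factor gene ftz-f1 encodes a nuclear receptor that lets tissues respond to the next hormone pulse (FBgn0001078, 3L, 18750607 to 18801309, minus strand). It had 7 peaks, as many as Eip75B, at a gene of 50.7 kb, which gave 1.15 per 10 kb of its window, the highest density of the 10 genes. The median over protein-coding genes of 20 kb or more was 0.261 per 10 kb. The density of ftz-f1 counts both peaks of a pair with summits 201 bp apart, which the same replicate candidates overlapped. All 7 lay in introns, and none ranked above 2123, so the gene combined many peaks with moderate signal.

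In intron 2 of ftz-f1-RB the 5 peaks ranked 2123, 2467, 2941, 3737 and 3894. The strongest of them (18786819 to 18787234, signal 188.56), 14282 bp downstream of the ftz-f1-RB start, ranked 2180, 2454 and 1902 in the replicates. The peaks of ranks 3737 and 3894 lacked the support of 1 replicate each, at ranks 5596 in replicate 1 and 5641 in replicate 2. In intron 3 the peaks of ranks 2518 and 4585 had summits 201 bp apart and, as at Eip74EF, were overlapped by the same replicate candidates (2584, 2292 and 2812). The non-coding gene lncRNA:CR45938 started nearer to this pair, at 2499 and 2700 bp, than ftz-f1 did, at 8372 and 8171 bp. The ftz-f1-RB start had a pooled candidate of rank 6275. Among the replicates' 4876 strongest candidates the ftz-f1 window held 7, 8 and 12.

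Eip93F (FBgn0264490, 3R, 21949114 to 22014539, plus strand), a late gene whose transcription factor acts in metamorphosis and in the death of larval tissues, had 1 peak within the gene. It ranked 4466 (4750, 6217 and 3764), in intron 3 of Eip93F-RB and 20730 bp downstream of the start of Eip93F-RA and Eip93F-RC. The other peak of the window, rank 2506 (2017, 2380 and 4322), lay 73 bp from the start of Idh3b, which encodes a subunit of the mitochondrial isocitrate dehydrogenase. Neither Eip93F start had a pooled candidate.

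Set in order by its strongest peak, the group began with Eip75B (rank 2) and Hr3 (155), which kept these places in every replicate. EcR (1597), Eip74EF (1660), usp (1706) and br (1714) followed, and the replicate ranks of these 4 peaks overlapped, from 1036 to 4004 for EcR and from 1613 to 2050 for br. The leading ftz-f1 peak, with replicate ranks from 1902 to 2454, and that of Eip93F, from 2017 to 4322, were not separated from their neighbours either. Eip78C (3569, with replicate ranks from 2852 to 4512) and Hr39 came last. The place of Eip93F rests on the peak in its downstream flank, 73 bp from the Idh3b start. The peak inside Eip93F ranked 4466, after the strongest of Eip78C.

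Replicate support at these genes was like that of the list as a whole. Every replicate supported 25 of the 34 peaks (73.5%, against 72.9% of all optimal peaks), 7 had the support of 2 replicates and 2, both at EcR, of 1. Among the 2438 optimal peaks of highest signal all 18 member peaks were supported by every replicate (99.3% of all peaks there), and among the other 2438 the count was 7 of 16 (46.4%). All 34 overlapped some candidate of every replicate, as did 4853 of the 4876 optimal peaks. The largest distance of a replicate summit from the optimal one had a median of 41 bp, against 40 bp over the list, and 79.4% of the member peaks had all summits within 100 bp, against 83.9%. Over the 34 peaks Spearman's rho between replicate ranks was 0.722 for replicates 1 and 2, 0.765 for 1 and 3, and 0.796 for 2 and 3, as a description of peaks that share libraries and partly share candidates.

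**Figure D3:**
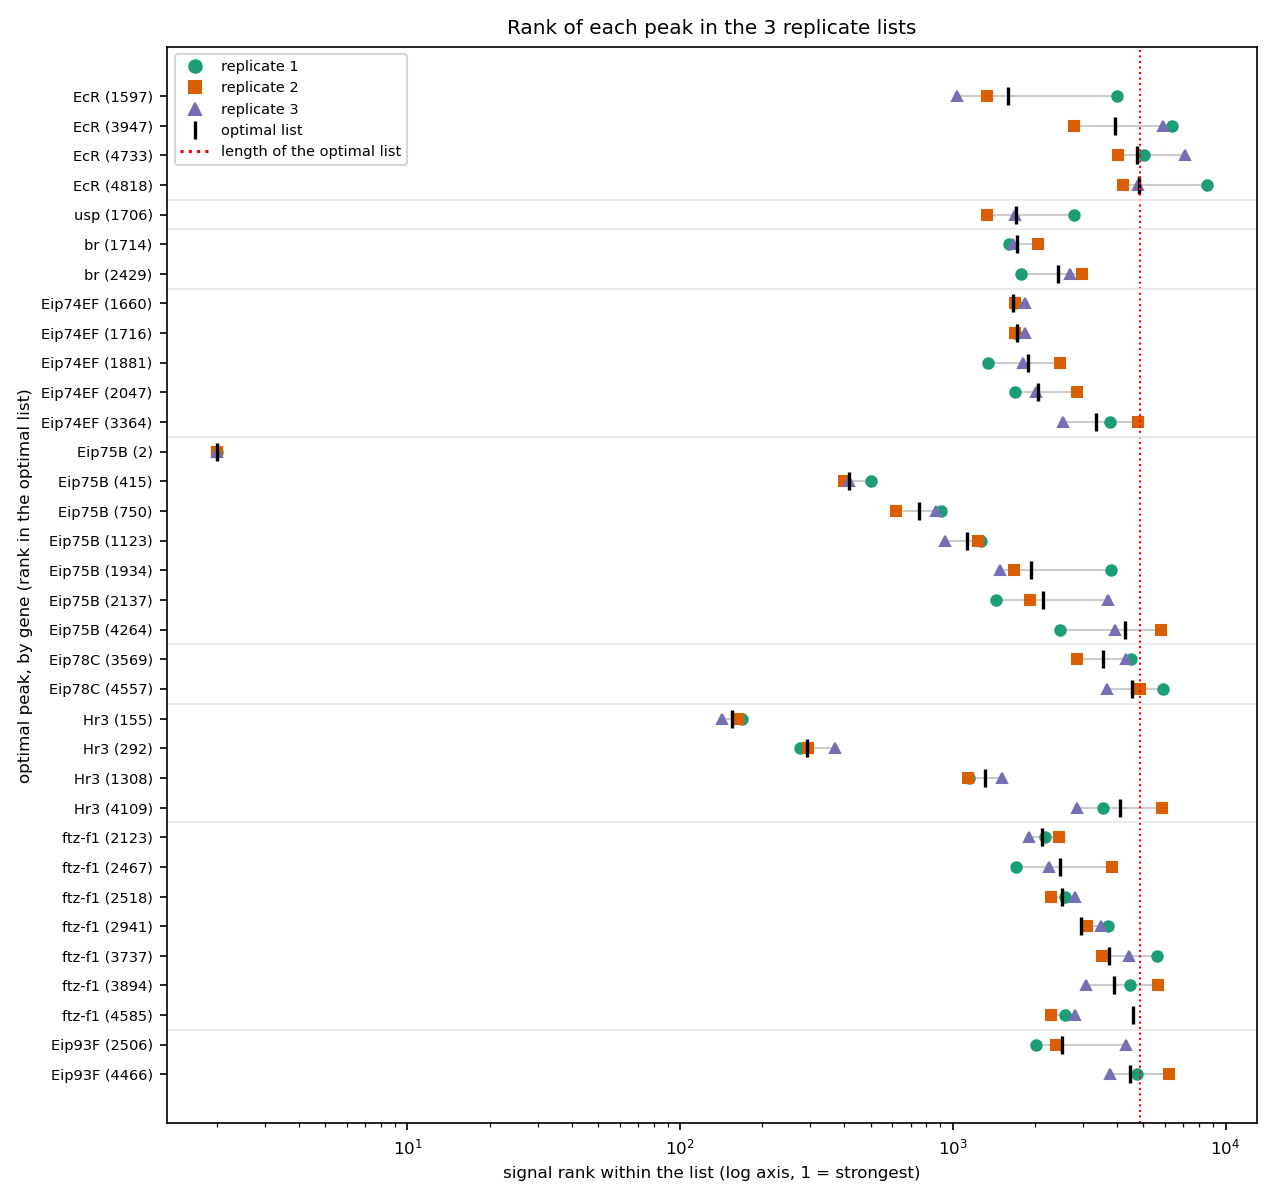
Signal rank of each of the 34 peaks in the 3 replicate lists (coloured symbols) and in the optimal list (black ticks), on a log axis; rows are peaks, grouped by gene. The red dotted line marks rank 4876, and the ranks of the leading Eip75B and Hr3 peaks nearly coincide while those of the EcR peaks spread widely.

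The summits at these genes lay farther from gene starts than most. Within 500 bp of a start of any gene were 7 of the 34 (20.6%), against 47.2% of the whole list and 31.5% of the 1906 peaks in windows of genes of 20 kb or more. Of the 7, 4 were at the starts of the neighbours Ars2, Vps60, CG3740 and Idh3b. More than 5 kb from any start lay 15 summits (44.1%), against 16.4% of the whole list and 26.1% at the long genes. The median distance was 3774 bp, compared with 590 bp over the list and 1604.5 bp at the long genes. By single starts, 3 of 37 had an optimal summit within 500 bp, against 17.8% of all starts of protein-coding genes and 12.8% of the starts of the long ones. Here and above, the long genes were not matched in length to the 9 members of 20 kb or more, which spanned 22.4 to 114.0 kb. Starts of a gene that lie close together share their peaks, and 9 of the 37 belong to br.

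**Figure D4:**
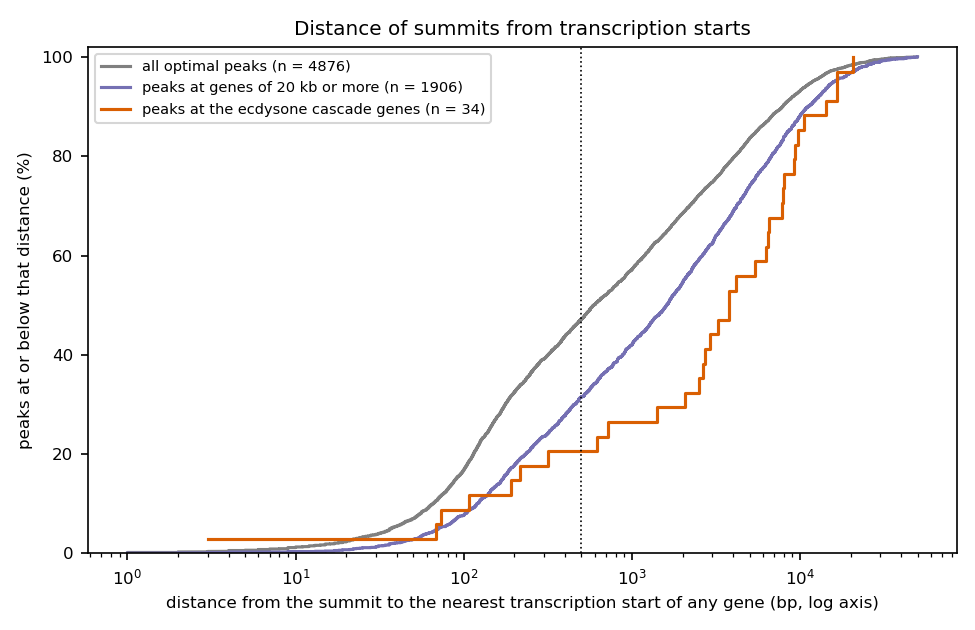
Cumulative share of summits (y axis, percent) by distance to the nearest transcription start of any gene (x axis, log scale) for the 34 peaks at the ecdysone cascade genes, the 1906 peaks at genes of 20 kb or more and all 4876 optimal peaks. The dotted line marks 500 bp, where the curves stand at 20.6%, 31.5% and 47.2%; distances under 1 bp are drawn at 1.

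**Figure D5:**
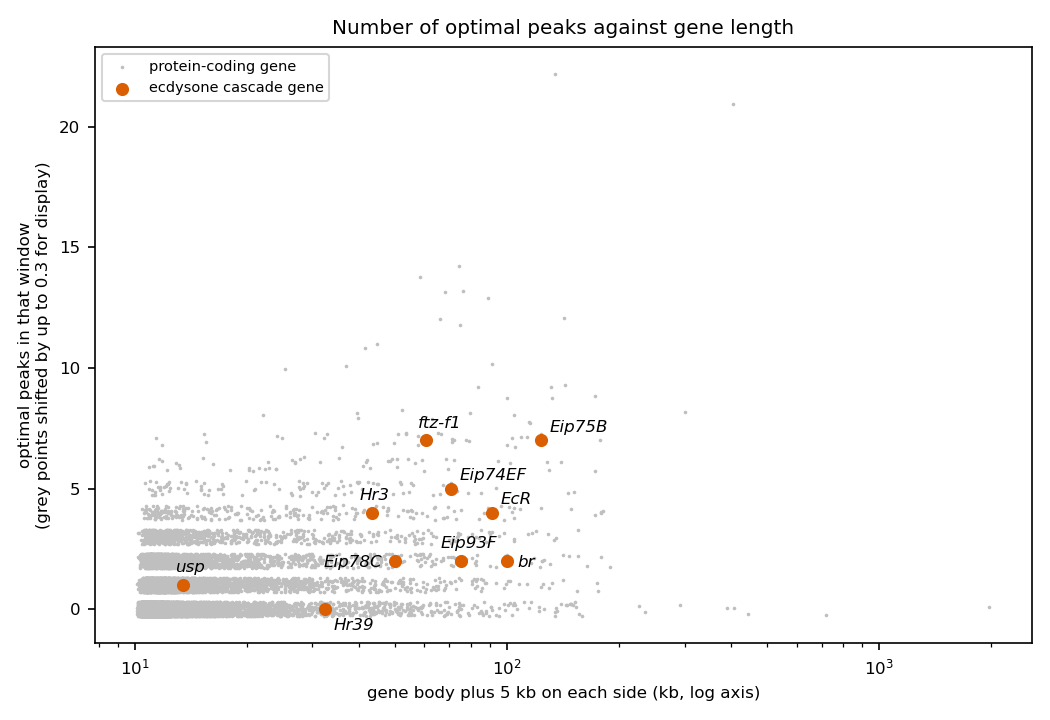
Number of optimal peaks (y axis) against the length of the gene body with 5 kb on each side (x axis, kb, log scale) for 13945 protein-coding genes, with the 10 ecdysone cascade genes in orange. Eip75B and ftz-f1 have 7 peaks each, and Hr39 has none.

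In base composition the summits resembled the other optimal summits. The 101 bases around the summit had a median A+T content of 68.8%, against 68.3% over the list and 57.8% over the arms. Within 50 bp of the 34 summits, on both strands, the core nuclear receptor site AGGTCA occurred at 0, which allows up to 8.82%, and at 1.85% of all optimal summits. With so rare a word, 34 summits cannot show a lower share, and with 100 bp to each side it was at 1 of them. An exact ecdysone response element, that core repeated as an inverted pair with 1 base between, occurred at 0 summits here and at 0 in the whole list. Many natural elements depart from that exact form and were not searched. The longer site CAAGGTCA of the Ftz-f1 and Hr39 type, the Ets site CCGGAAGT, the DRE element TATCGATA, GAGAGAG, the M1BP-type word GGTCACAC and the Zelda-type word CAGGTAG were also at 0 of 34, and at no more than 1.87% of all.

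The fixed words that did occur were short ones. The homeodomain core TAATTA was at 3 summits (8.82%, against 10.3% of all), at usp, Eip78C and ftz-f1. CGATA, a core of BEAF-32 sites that is also contained in the DRE, was at 4 (11.8%, against 15.6%), at usp, in the Eip74EF window beside Vps60, in Eip75B intron 3 and in the Eip93F window beside Idh3b. The usp and ftz-f1 sequences given above show one of each.

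Another pair of words was looked for after the sequences had been read, so their counts are descriptions of a choice already made. CGCATAAA, which reads TTTATGCG on the other strand, was the word of 8 bases most in excess over flanks at the 100 strongest peaks outside the group, where it was at 11.0% of summits against 0.943% of all optimal summits. It was within 50 bp of none of the 34 summits but lay inside the leading Eip75B peak, 152 bp from its summit and 84 bp upstream of the Eip75B-RC start, as capitals in the sequence above show. With 200 bp to each side it was at 1 of the 34 (2.94%, against 2.95% of all).

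CGCCATCT, read AGATGGCG on the other strand, belongs to the consensus of the fly insulator protein CTCF. Within 50 bp it was at 3 of the 34 summits (8.82%), against 1.35% of all and 1.0% of the 100 strongest outside the group. The word was looked for after the sequences had been read, so its share here is not independent of that choice. The 3 summits were those of the Eip75B peaks of ranks 1123 and 1934 and the EcR peak of rank 1597. In these peaks the word lay 44, 47 and 4 bp from the summit. With 200 bp to each side the count was 5 of 34 (14.7%, against 2.67%), adding the Eip75B peak of rank 4264 and the Eip74EF peak of rank 3364.

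Other genes of the pathway were taken from a list of 80, of which 78 were matched to the annotation. The synthesis enzyme gene phm and the uptake transporter gene EcI were not matched and not analysed here. Promoters of the matched genes were bound about as often as those of all genes, 15 of 78 (19.2%, against 19.9%), and 44 of 78 windows (56.4%, against 48.8%) held a peak. The steroid-synthesis list lacked phm and also held the hormone-degrading enzyme gene Cyp18a1 and the neuropeptide gene NPF. It had 0 of 11 promoters bound, which allows up to 27.3%. Neither Ptth nor tor, the genes of a brain hormone that drives steroid synthesis and its receptor, was bound at a promoter. The counts by role rest on few genes and were not tested against the 19.9% of all protein-coding genes. Of 10 receptor cofactor genes 5 were bound, led by the nucleoporin gene Nup98-96 (signal 394.9, rank 605, with replicate ranks of 467, 903 and 537) and the EcR coactivator gene tai (rank 1064), whose peak lay nearer to CG9586. The Mediator gene skd (rank 1929, nearer to Pdss2) and the acetyltransferase gene nej (rank 2377) followed.

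Of 14 other nuclear receptor genes 5 were bound (35.7%, again against 19.9% of all genes). Hr96 (rank 471, replicate ranks 458, 455 and 558) lay beside EMC6, and ERR (rank 1050) beside Atg18a, so both peaks were nearer to a neighbour's start. Hnf4 (rank 1073), a regulator of lipid metabolism, and eg (rank 2434) had peaks of their own. Other ecdysone-induced genes, which include glue, larval serum and cuticle genes, were bound in 3 of 33 cases (9.09%). These were E23, a transporter gene that dampens the hormone response (signal 927.84, rank 108, replicate ranks 103, 106 and 113), the lactate dehydrogenase gene Ldh, also known as ImpL3 (rank 400), and Eip63F-1 (rank 3136). The cell death genes hid (rank 549; 565, 587 and 628) and Drice (rank 4126, nearer to Rnb) were the 2 bound of 6 (33.3%), and neither of the 2 juvenile hormone receptor genes was bound at a promoter.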

How the data were processed

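Anti-GFP ChIP-seq was run on whole embryos of 1 fly line in 3 biological replicates, numbered by the labels. Per the file headers in the deposited README texts, each replicate list came from its alignment and a control. All alignments with the control gave the pooled list, and comparison of peak ranks by the irreproducible discovery rate then gave the optimal list. The aligner, peak caller and rate limit were not given in the sources used here. Control reads were not analysed here, and the dm3 lists were not used. Signal is the enrichment that the authors deposited for each peak, on a scale of its own in each list, so values were ranked within a list and only ranks were compared between lists. The optimal list holds exactly the 4876 pooled candidates of highest signal. Depth is unknown, so no sampling error of reads is included, and limits for counts of 0 (3 of the total) cover counting error only.

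The annotation was Ensembl BDGP6.54, release 115 (17896 genes without transposable elements and pseudogenes), and sequences were read from RefSeq's genome of that assembly. Windows were the gene body with 5 kb on each side, and promoter peaks were those with a summit at most 500 bp from an annotated start. Summits are the deposited start plus offset. Motifs were sought on both strands within 50 bp of the summit. For each replicate the overlapping candidate of highest signal is quoted. The members, the lists and the motifs were chosen with earlier results of these data known. Named are all 10 members with every optimal peak or, with none, their strongest pooled candidate, the nearest neighbour gene, and up to 4 pathway genes per role by promoter signal. No test was run, since there is 1 group. Alternatives were other flanks, promoter distances and windows, peak midpoints, the pooled list, the 2438 peaks of highest signal, and support with each replicate left out. The gene length of 20 kb for the comparison with long genes, the intron shares, the settings tried for the pathway genes and 2 words were chosen after seeing the data. Each step was first tested on simulated data. Python 3.11.15, NumPy 2.4.6, pandas 2.3.3 and matplotlib 3.10.9 were used.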

Additional observations from a re-analysis of the deposited data

How the results depend on the processing

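The 34 peaks fell to 19 when a peak was kept only if its nearest start belonged to the member, and to 18 among the 2438 optimal peaks of highest signal, while members with a peak fell from 9 to 7 in both cases. The 6 summits with a fixed motif rose to 15 with 100 bp to each side. The other flanks gave 30 to 37 peaks at 9 members, midpoints gave 34, and the pooled list at equal length was the same list by construction. With 1 replicate left out at a time, 25 to 29 peaks had the support of the remaining replicates, against 25 with all replicates. The same filter, not used for the main count of 3 members with a promoter peak, left 2. EcR was lost each time because only replicate 2 supported its promoter peak. The EcR promoter peak was also lost at 250 bp. For the pathway genes, 10 to 18 promoters were bound over all settings. Summits within 100 bp in every replicate left 23 of 34 peaks supported. No paired analysis was possible because there is 1 group. Unknown depth limits what the absence of a peak shows.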

Other observations

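The 6 pathway genes without a promoter peak that had the best-ranked peak elsewhere in their windows are given here, chosen after their values were seen. MsrA, listed as Eip71CD, had 1 optimal peak in its window, of rank 3, and the glue protein gene Sgs1 had 1, of rank 22. ImpL2, which encodes an insulin-binding protein, had 4, with a best rank of 164. Hr4, a nuclear receptor gene of the ecdysone cascade that was not in the group, had 13 over a gene body of 66.0 kb, with a best rank of 200. The juvenile hormone receptor gene gce had 3 (best rank 242) and the corepressor gene Smr had 6 (best rank 276). These windows, like those of the 10 genes, can hold peaks that belong to neighbouring genes. The peaks of rank 3 (MsrA), 22 (Sgs1) and 242 (gce) each lay within 500 bp of a start of another gene. They were thus promoter peaks of neighbours by the rule used here. The best-ranked peaks of ImpL2, Hr4 and Smr lay more than 500 bp from any annotated start.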
